A study of Mus musculus with 6 samples.

Results

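The mitochondrial ribosomal protein genes were taken as every listed gene whose symbol is Mrps or Mrpl followed by a number and at most 1 letter, which gave 78 of 20637 genes, 29 named for the small subunit (Mrps) and 49 for the large subunit (Mrpl). They were measured by RNA-seq of poly(A) RNA from the whole uterus of females at postnatal day 21, in 3 libraries of Nat10 f/f mice (floxed controls) and 3 of Nat10 d/d mice (Nat10-deleted). The labels name no Cre driver, deleted exons, strain or litter, and no other allele or treatment for either group. Nothing in the labels says whether a library came from 1 animal or from a pool, so the p-values measure the spread between these libraries. The comparison asks which transcripts of the mitochondrial translation machinery differ in the uterus when Nat10, an RNA cytidine acetyltransferase, has been deleted.

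The mitochondrial ribosome translates the few proteins that mitochondrial DNA encodes, all of them subunits of the oxidative phosphorylation complexes. Its RNA components come from mitochondrial DNA, whereas all of its proteins are encoded in the nucleus, made in the cytosol and imported. Many of these proteins are relatives of bacterial ribosomal proteins, and the others were added in the mitochondrial lineage. Their genes are widely expressed, and promoters of nuclear genes for mitochondrial proteins are known for sites of NRF1, of ETS factors such as GABP, and of YY1.

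The level of most members was highest in a single Nat10-deleted library, replicate 2, and no member passed the test between the groups. In that library 66 of the 78 members had their highest value, 24 of 29 small-subunit and 42 of 49 large-subunit genes, with a median of 134% of the control mean for the small and 137% for the large subunit. Nat10-deleted replicates 1 and 3 had medians of 102% and 93.4% for the small subunit and 110% and 94.6% for the large. Over all 12640 genes tested, 30.1% had their highest value in Nat10-deleted replicate 2.

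The libraries were checked first. Nat10 had values of 13.2, 16.4 and 9.95 in controls 1, 2 and 3, against 5.57, 5.23 and 5.53 in Nat10-deleted replicates 1, 2 and 3, so the groups did not overlap (log2 change -1.11, SE 0.17; limma adjusted p 0.669 over all genes; two-sided exact permutation p 0.1, the smallest that 3 against 3 libraries allow). Values are FPKM-type, that is, abundance divided by gene length and depth, and they summed to between 500764 and 549263 per library. Relative depth, read from the lowest values, ranged from 0.804 to 1.016 of that of control 1, and absolute depth is unknown. The fixed uterine markers (Esr1, Pgr, Hoxa10, Hoxa11, Hand2, Wnt7a, Acta2 and Myh11) were all present, with summed values of 2504 to 3006. Among markers of other tissues, Myh1, Myh2 and Myh4 of skeletal muscle and Cyp19a1, Fshr, Oosp1 and Zp3 of the ovary were listed at 0 in every library. The 8 skeletal muscle markers together summed to 86.9 to 105 in controls and to 89.2, 123 and 113 in deleted replicates 1, 2 and 3, the 8 ovary markers to 5.59 to 10.3 over all libraries and the 6 oviduct markers to 12.9 to 26.4. The 8 fat markers summed to 76.7 in control 1 and to 2.32 to 18.3 elsewhere, and the 7 blood markers to 5582 in control 1 and 709 to 2629 elsewhere. Markers of stroma summed to 4163 to 4838 in controls and to 3411, 4943 and 3249 in deleted replicates 1, 2 and 3. The sum of replicate 2 was thus the highest of all libraries, and those of replicates 1 and 3 were below the controls. By gene, 5 of the 8 lay above and 3 below every control in replicate 2, against 38.4% and 33.1% of all genes. Each of the 8 had a log2 change below 0 (median -0.38), and 7 did without replicate 2 (median -0.52). Endothelial markers summed to 303 to 343 in controls and to 254, 287 and 281 in the deleted libraries, all below the controls. All 8 had a log2 change below 0, and for 4 the deleted libraries lay below every control, as for 4.6% of all genes. Epithelial markers summed to 843 to 911 in controls and to 920, 788 and 1106, lowest in deleted replicate 2. In that library 3 of these 8 genes lay above and 4 below every control. Smooth muscle markers summed to 4127 to 4742 in controls and to 4891, 4586 and 3838, and leukocyte markers to 149 to 228 and to 216, 159 and 203. The part of these tissues and cell types in the member values was not tested. In whole tissue, fewer cells of a type and less RNA per cell cannot be told apart.

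Sequence upstream of the members was read from RefSeq promoter windows (build GRCm38.p6, 250 bases before to 50 bases after a start), which were found for 69 of the 78 genes. The 9 without a window were Mrpl13, Mrpl15, Mrpl19, Mrpl38, Mrpl4, Mrpl54, Mrps28, Mrps34 and Mrps35. The following stretches lie upstream of 4 members on which the values below turn, cut to the part outside annotated exons, 5′ to 3′ on the strand of the gene, with capitals marking an ETS match on either strand. Mrpl30 had the smallest p of all members, Mrps18c the highest value in Nat10-deleted replicate 2 relative to controls, and Mrpl52 was the most abundant member. Mrps22, at 181% of the control mean in that library, was not picked by rank, since Mrps36, Mrpl18, Mrps28 and Mrpl22 also stood higher there. The stretches shown do not stand for all members, of which 26 of 69 had ETS letters in a window.
Mrpl30, chr1:37890412-37890476, plus strand: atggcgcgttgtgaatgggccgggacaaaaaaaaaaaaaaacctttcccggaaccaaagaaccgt
Mrps18c, chr5:100798599-100798626, plus strand: gtgaCTTCCGGcccgggaagcgcgggaa
Mrps22, chr9:98601680-98601929, minus strand: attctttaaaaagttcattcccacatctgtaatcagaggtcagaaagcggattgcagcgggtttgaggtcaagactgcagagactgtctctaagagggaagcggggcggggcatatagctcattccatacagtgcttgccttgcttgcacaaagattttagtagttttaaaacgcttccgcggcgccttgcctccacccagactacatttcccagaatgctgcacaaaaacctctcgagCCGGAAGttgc
Mrpl52, chr14:54426659-54426908, plus strand: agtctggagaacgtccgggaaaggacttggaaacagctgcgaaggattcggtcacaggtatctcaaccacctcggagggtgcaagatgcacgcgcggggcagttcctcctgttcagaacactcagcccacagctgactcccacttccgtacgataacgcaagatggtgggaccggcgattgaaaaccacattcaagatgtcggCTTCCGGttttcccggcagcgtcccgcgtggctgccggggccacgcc

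The stretch of Mrpl30 is all that lies between its start and the exons of Mitd1, which is transcribed the other way, and that of Mrps18c lies between it and Helq. Such a start of another protein-coding gene on the opposite strand, from 1000 bases upstream to 300 bases downstream in GENCODE M21, was present for 23 of 78 members (29.5%) and for 1899 of 21938 protein-coding genes (8.66%). The members are spread over 17 chromosomes. Both strands of each window were searched for the consensus letters of NRF1, ETS factors (CCGGAAG) and YY1, none of which contains another. ETS letters were found for 26 of 69 members (37.7%) and in 9.92% of 26994 genes with a window. NRF1 letters were found for 14 members (20.3%) against 6.99% of genes, and YY1 letters for 5 (7.25%) against 0.989%. The shares over all genes include every gene with a window in the table, and a match to letters describes the sequence alone.

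Values of members with and without the letters were set side by side. In Nat10-deleted replicate 2 the median difference from the control mean on the log2(value + 1) scale was 0.45 for the 26 members with ETS letters and 0.4 for the 43 without. It was 0.4 for the 14 with NRF1 letters and 0.41 for the 55 without, and 0.37 for the 5 with YY1 letters and 0.44 for the 64 without. The median log2 change between groups was 0.19 with and 0.12 without ETS letters, 0.15 and 0.14 for NRF1, and 0 and 0.16 for YY1. These differences were not tested.

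Levels of the members in control uteri were described next, since FPKM-type values are per length and can be set side by side. Control means ranged from 8.56 (Mrps25) to 98.2 (Mrps21) in the small subunit, an 11.5-fold range, and from 4.01 (Mrpl19) to 152 (Mrpl52) in the large, a 37.8-fold range. The subunit medians were 24.8 and 29.9, above the median of 13.3 over all genes tested. All 78 members passed the filter, which asked 3 or more libraries to reach a value of 1, and the lowest single value was 3.54.

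**Figure D1:**
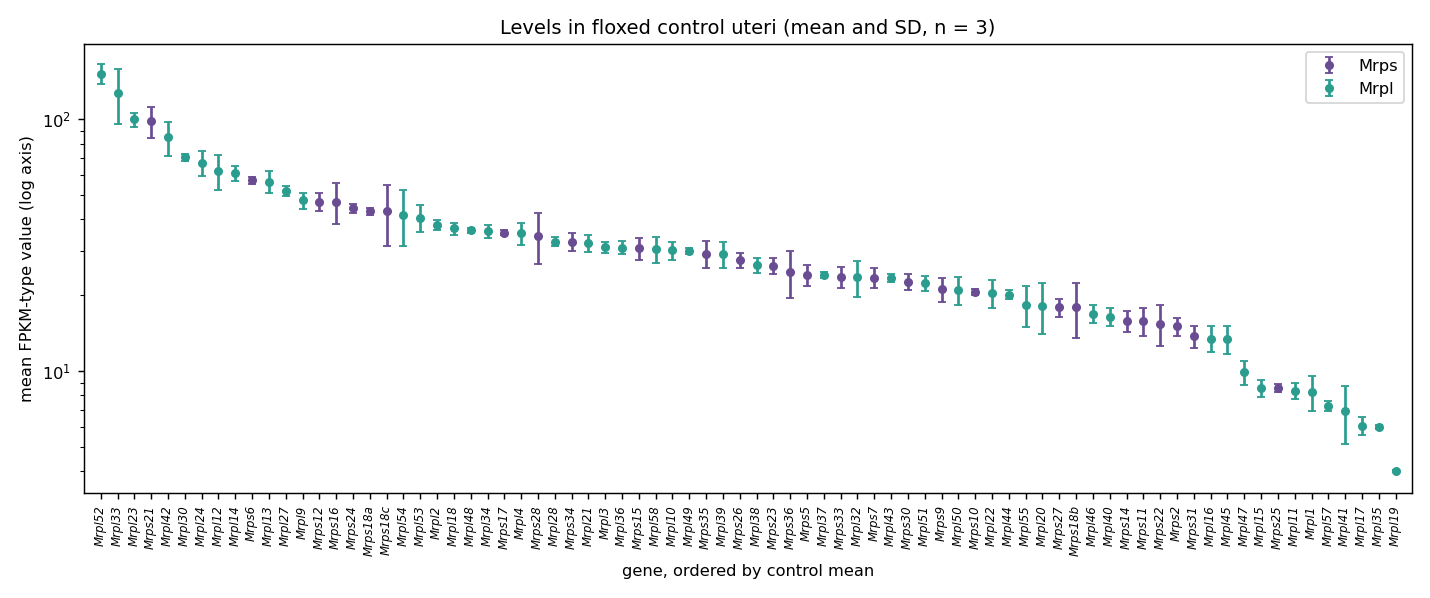
Mean FPKM-type value (log axis) of each of the 78 members in the 3 floxed control libraries, with SD as bars, ordered by mean and coloured by subunit. Mrpl52 at 152 and Mrpl19 at 4.01 mark the ends, and most members lie between 10 and 100 with bars that overlap those of their neighbours.

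Among large-subunit genes, Mrpl52 had 152 ± 13.6 (SD, n = 3) in controls, Mrpl33 127 ± 31.2 and Mrpl23 99.99 ± 6.39. Mrpl52 and Mrpl33 did not differ beyond their spread. The lowest were Mrpl19 at 4.01 ± 0.0451, Mrpl35 at 5.99 ± 0.1001 and Mrpl17 at 6.06 ± 0.484, of which the last pair overlapped. In the small subunit Mrps21 had 98.2 ± 13.9, Mrps6 57.1 ± 1.90 and Mrps12, a relative of the bacterial decoding-centre protein, 47.1 ± 3.99. The lowest were Mrps25 at 8.56 ± 0.304, Mrps31 at 13.7 ± 1.39 and Mrps2 at 15.1 ± 1.25, of which Mrps31 and Mrps2 overlapped. Mrps25 shares 4590 of its 6576 exonic bases with Nr2c2, and Mrpl19 1962 of 5450 with Gcfc2, both on the opposite strand. The strandedness of the libraries is not given in the sources used here, so the lower ends of both ranges are uncertain. Exons of 23 of the 78 members overlap those of another protein-coding gene, and only some of these overlaps are stated below. Relatives of bacterial proteins had median control levels of 32.6 in the small and 32.3 in the large subunit, and mitochondrion-specific proteins 23.7 in each. This division was drawn from textbook nomenclature after the values were seen.

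Across the groups, no member passed an adjusted p of 0.05 in either direction (limma, Benjamini-Hochberg over 12640 genes), and the share of all genes that passed was 0%. Adjusted p among members was 0.922 or more. Mrpl30 and Mrps6 were the 2 members under an unadjusted p of 0.05, both higher, where 2.68% of all genes were higher and 2.3% lower at this level. Every deleted library lay above every control for 6 members, 2 small-subunit and 4 large-subunit genes, against 6.12% of all genes, and none lay below, against 4.6%. A count of 6 in 78 is close to that background.

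Fitted changes were small and mostly above 0. Of the small-subunit genes 24 had a log2 change above 0 and 5 below, with a median of 0.09 and a range of -0.19 to 0.51. Of the large-subunit genes 47 were above 0 and 2 below, with a median of 0.17 and a range of -0.01 to 0.47. Over all genes tested the median was 0.03, with 7154 above 0 and 5486 below. These counts depended on the scale: with each library scaled to an equal sum, 17 of 29 small-subunit genes (median 0.03) and 36 of 49 large-subunit genes (median 0.12) were above 0, and with array quality weights 15 (median 0) and 36 (median 0.12). Quantile normalization gave 19 and 37, and regressing out GC content and length, a step chosen after the data were seen, 18 and 36. Without Nat10-deleted replicate 2 the median was -0.07 for the small subunit (12 above 0, 17 below) and 0.01 for the large (26 above, 23 below), beside 0.02 over all genes. In that fit 3 members were higher at an unadjusted p under 0.05 (Mrps6, Mrpl30 and Mrpl1) and 2 lower (Mrps11 at -0.48 and Mrps12 at -0.36), against 7.11% and 6.46% of all genes. Without Nat10-deleted replicate 3 the medians were 0.21 and 0.31, and 5 small-subunit and 15 large-subunit genes were higher at an unadjusted p under 0.05 and none lower, against 5.87% and 5.26% of all genes. No member passed the adjusted threshold in either fit (limma). Without control 3 the medians were 0.03 and 0.11.

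**Figure D2:**
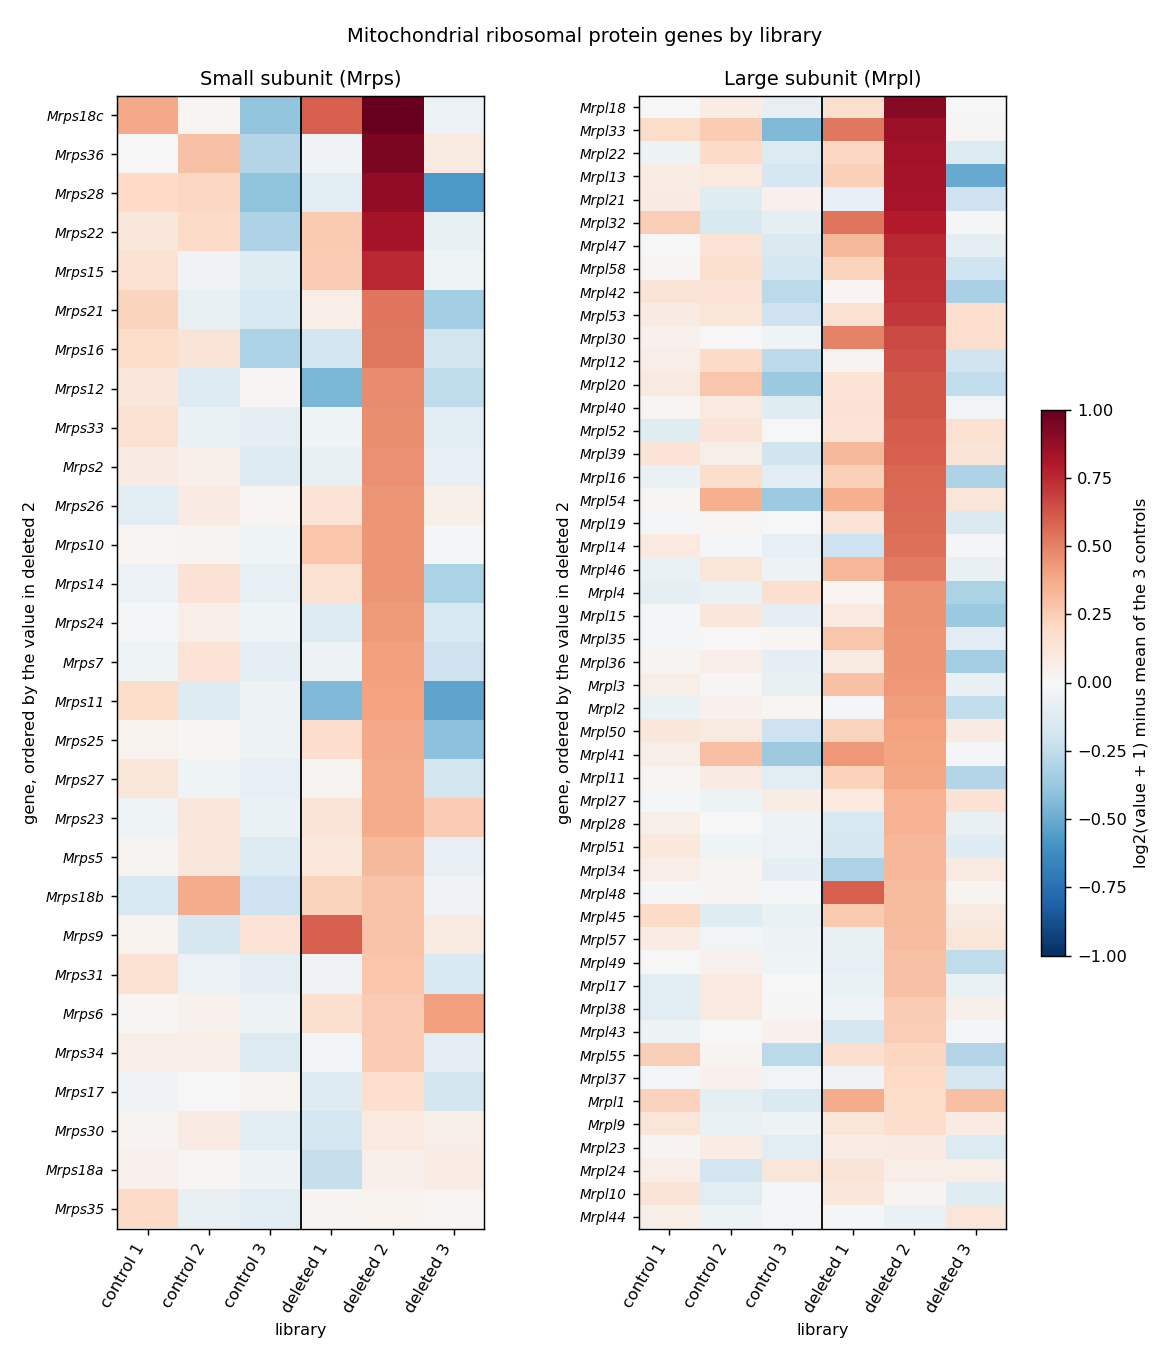
Each member (rows, small subunit at left, large at right) in each of the 6 libraries (columns), as log2(value + 1) minus the mean of the 3 controls, red above and blue below. Rows are ordered by Nat10-deleted replicate 2, whose column is red for nearly every gene, while the columns of replicates 1 and 3 hold both colours.

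Set against the 3 controls, the deleted libraries differed among themselves. Nat10-deleted replicate 2 exceeded every control for 71 of 78 members and lay below every control for 1, against 38.4% and 33.1% of all genes. Nat10-deleted replicate 1 exceeded every control for 39 members (10 small-subunit, 29 large-subunit) and lay below for 14, against 34.2% and 31.9% of all genes. Nat10-deleted replicate 3 exceeded every control for 11 and lay below for 32, against 34% and 25.5%. The library medians were 0.03, 0.41 and -0.09 for the small subunit in deleted replicates 1, 2 and 3, and 0.14, 0.44 and -0.07 for the large. In controls 1, 2 and 3 they were 0.04, 0.04 and -0.09 for the small and 0.05, 0.05 and -0.08 for the large subunit. Replicate 3 thus lay within the control range for the large subunit and at its lower end for the small, and replicate 1 lay above the control range for the large subunit alone.

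**Figure D3:**
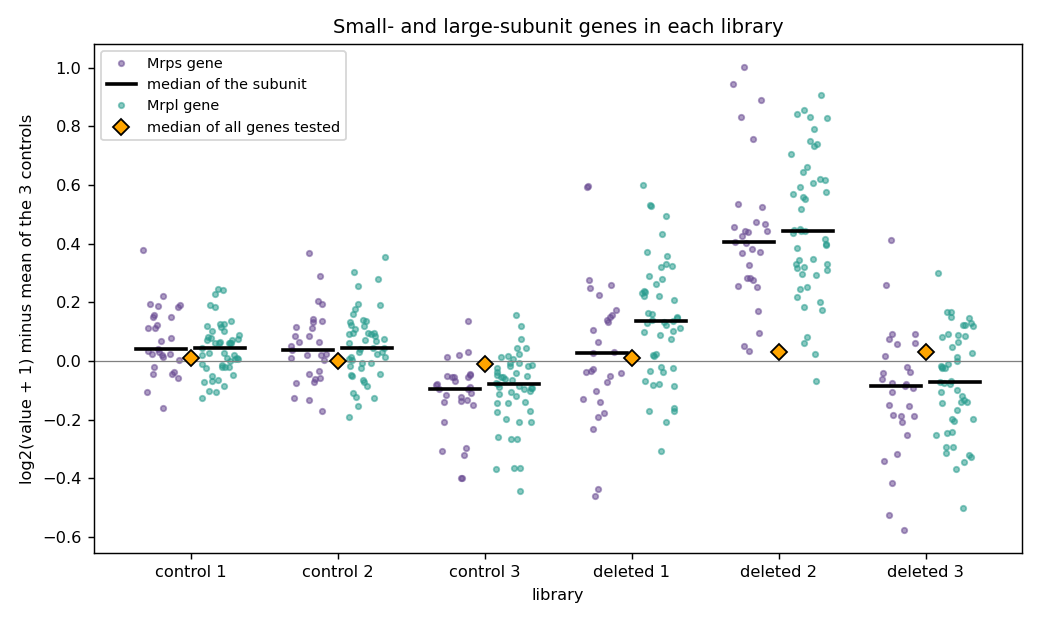
Log2(value + 1) minus the mean of the 3 controls for each small-subunit (purple) and large-subunit (green) gene in each library, with the subunit median as a bar and the median of all genes tested as a diamond. The bars of Nat10-deleted replicate 2 stand at 0.41 and 0.44, while the diamond of that library is at 0.03.

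The position of Nat10-deleted replicate 2 was kept under each scaling tried: its medians were 0.32 to 0.36 for the small and 0.35 to 0.4 for the large subunit after quantile normalization, median centring, upper-quartile scaling or scaling to an equal sum, and it held the highest value of 23 of 29 and of 40 or 41 of 49 genes. Over all 12640 genes tested it held the highest value of 2954 to 3385 under these scalings. Transcript length moved with this deviation. Members had a median transcript length of 1150 bases, against 2467 bases over all genes tested, and across the 12629 genes with a length the Spearman correlation of length with the deviation in Nat10-deleted replicate 2 was -0.24 (-0.26 across the 78 members). These genes share the same libraries and are not independent. With GC content and length regressed out, the medians in Nat10-deleted replicate 2 were 0.28 and 0.33, with the highest value for 20 of 29 and 40 of 49 genes. The same held for 3407 of all 12640 genes tested. The depth of this library was 1.016 of control 1.

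The spread among deleted libraries was lower without replicate 2, for the members and for all genes. The median coefficient of variation was 9.24% among controls and 23.7% among deleted libraries for the small subunit, and 7.92% and 21.1% for the large. Over all genes tested it was 9.46% and 16.1%. Between Nat10-deleted replicates 1 and 3 alone it was 10.6% for the small subunit, 11.3% for the large and 10.1% over all genes. A median spread from 2 libraries tends to come out lower than one from 3, and replicate 2 was dropped for its values. These figures therefore cannot be set beside those of the 3 controls.

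In the large subunit, Mrpl30 (chromosome 1, 37890477 to 37898535) had values of 72.8, 70.2 and 68.6 in controls, against 99.7, 112 and 79.4 in Nat10-deleted replicates 1, 2 and 3. All deleted libraries lay above all controls, with replicate 3 nearest to them. The means were 70.5 ± 2.10 and 97.1 ± 16.5 (SD, n = 3), a log2 change of 0.44 (SE 0.14; limma unadjusted p 0.0156, adjusted p 0.922). With array quality weights, which were 3.74, 0.224 and 0.451 for Nat10-deleted replicates 1, 2 and 3, so that replicate 1 carried most of the weight of its group, Mrpl30 was the only member with an adjusted p under 0.05 in limma (0.0462; log2 change 0.46; range of adjusted p over all settings 0.0462 to 1), where 1.16% of all genes passed as higher. Mrpl30 belongs to the relatives of bacterial proteins.

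Mrpl39 had 31.9, 30.3 and 25.1 in controls, against 36.5, 44.2 and 31.8 in deleted libraries, and replicate 3 lay just under the highest control (log2 change 0.35, SE 0.15; 0.23 without replicate 2). Mrpl1, the protein of the mobile stalk beside the exit of used tRNA, had 9.77, 7.66 and 7.34 in controls, against 10.9, 9.46 and 10.3 in deleted libraries (0.29, SE 0.13; 0.16 with GC content and length regressed out). Nat10-deleted replicate 2 was the lowest of the deleted libraries for Mrpl1, Mrpl24 and Mrpl44 among all members. Mrpl48 had 35.8, 37.0 and 35.8 in controls, against 55.4, 45.4 and 36.8 in deleted libraries (0.32, SE 0.15; 0.17 without replicate 1), with replicate 3 inside the control range. Exons of Mrpl48 share 708 bases with Rab6a on the opposite strand, which leaves its value uncertain.

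Mrpl32, whose protein is cut by a mitochondrial protease before it joins the ribosome, had 27.9, 20.9 and 21.8 in controls, against 34.2, 41.1 and 23.1 in deleted libraries (log2 change 0.44, SE 0.22; 0.26 without replicate 2). Mrpl33 had 141, 148 and 91.0 in controls, against 179, 225 and 125 in deleted libraries (0.47, SE 0.26; 0.27 without replicate 2 and 0.25 without control 3). For both, replicate 3 lay within the control range. Exons of Mrpl33 share 261 of 7326 bases with Gm43809 on the same strand, which leaves its value uncertain. Mrpl52 had 139, 166 and 150.4 in controls, against 166, 231 and 168 in deleted libraries (0.30, SE 0.16; 0.14 without replicate 2), and Mrpl53 had 42.8, 44.0 and 34.8 in controls, against 44.8, 66.4 and 45.4 in deleted libraries (0.34, SE 0.18; 0.16 without replicate 2). For neither did the groups overlap, but the lowest deleted values stood close to the highest control. Mrpl27, named because it was the other large-subunit gene without overlap, had a log2 change of 0.20 (SE 0.11). Of the 790 exonic bases of Mrpl53, 695 are shared with Gm42688 on the same strand, so its value is uncertain.

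**Figure D4:**
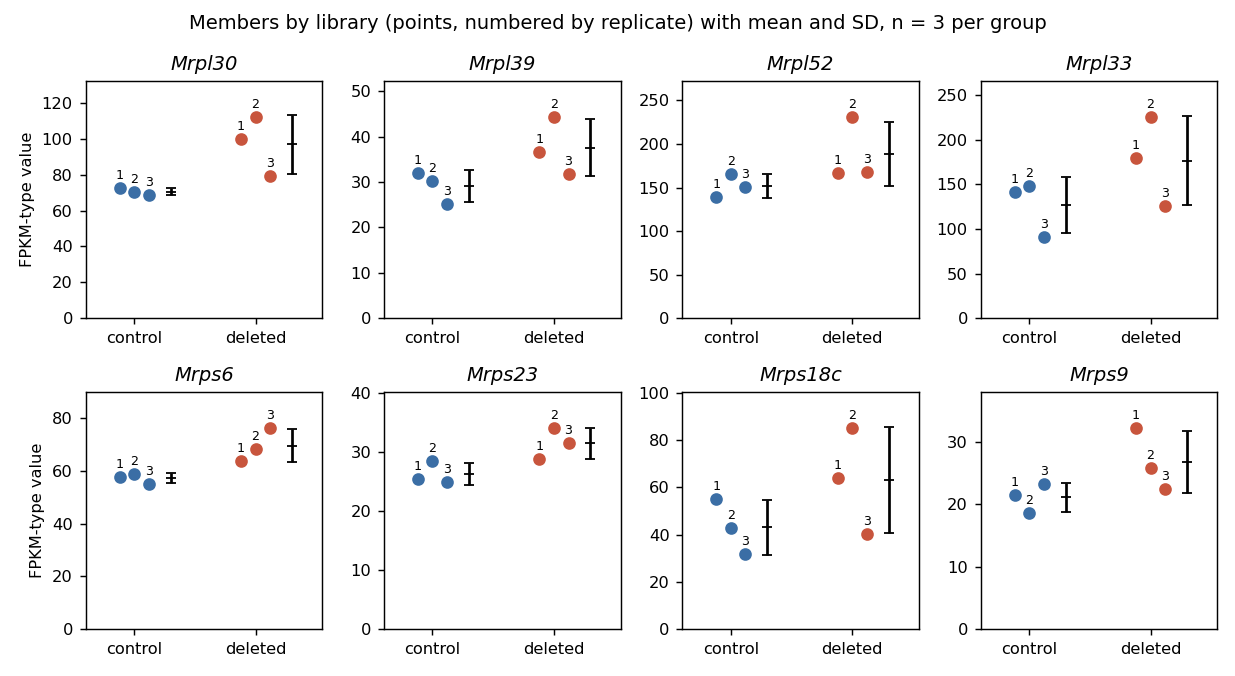
FPKM-type values of 8 members in each library (points numbered by replicate, controls blue, deleted red), with the group mean and SD beside them (n = 3). Deleted replicate 2 is the highest point for Mrpl30, Mrpl39, Mrpl52, Mrpl33, Mrps23 and Mrps18c, whereas replicate 3 leads for Mrps6 and replicate 1 for Mrps9.

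In the small subunit, Mrps6 (chromosome 16, 92058270 to 92112227) had 57.7, 58.7 and 55.0 in controls, against 63.8, 68.4 and 76.3 in deleted libraries, without overlap. The means were 57.1 ± 1.90 and 69.5 ± 6.31 (SD, n = 3), a log2 change of 0.28 (SE 0.11; limma unadjusted p 0.0373, adjusted p 0.922), and 0.28 without Nat10-deleted replicate 2. Its exons share 305 bases with Gm49711 and 159 with Slc5a3 on the same strand, which leaves its value uncertain. Mrps23, a mitochondrion-specific protein, had 25.4, 28.4 and 24.9 in controls, against 28.8, 34.1 and 31.5 in deleted libraries, without overlap (log2 change 0.25, SE 0.11). Mrps9 had 21.6, 18.5 and 23.2 in controls, against 32.2, 25.8 and 22.4 in deleted libraries (0.32, SE 0.16; 0.19 without replicate 1), and here replicate 1 was the highest.

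Mrps18c had 54.9, 42.7 and 31.7 in controls, against 64.0, 85.2 and 40.3 in deleted libraries, 198% of the control mean in replicate 2 (log2 change 0.51, SE 0.29; 0.27 without that library, 0.80 without replicate 3 and 0.31 without control 3). Of its 1076 exonic bases, 250 are shared with Gm43511 on the same strand, which leaves its value uncertain. Mrps15 had 34.2, 29.9 and 28.0 in controls, against 36.6, 52.4 and 29.7 in deleted libraries (0.32, SE 0.20; 0.10 without replicate 2 and 0.50 without replicate 3). Mrps22 had 16.6, 17.6 and 12.1 against 18.5, 27.9 and 14.4 (0.34, SE 0.24; 0.09 without replicate 2, 0.55 without replicate 3 and 0.19 without control 3). Replicate 3 fell among the controls for all of these. Mrps10 (log2 change 0.23, SE 0.14; 0.13 without replicate 2 and 0.36 without replicate 3) and Mrps26 (0.22, SE 0.13; 0.10 without replicate 2) were likewise highest in replicate 2, at 28.3 and 37.9, beside highest control values of 20.97 and 29.3.

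The Mrps18 family has 3 paralogs related to the same bacterial protein, which occupy different sites of the mitochondrial ribosome. Mrps18b had 15.6, 23.0 and 15.1 in controls, against 20.7, 21.6 and 17.1 in deleted libraries, with all deleted values inside the control range. Of its 2089 exonic bases, 638 are shared with Gm16279 on the opposite strand, which leaves its value uncertain. Mrps18a had 44.4, 43.4 and 41.6 in controls, against 36.6, 44.7 and 45.5 in deleted libraries, with replicate 1 below and the others just above the controls. In replicate 2 the paralogs a, b and c were at 104%, 121% and 198% of their control means. The difference between paralogs was not tested.

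Mrps18a and Mrps30 carry small-subunit names, but their proteins sit in the large subunit of the mammalian mitochondrial ribosome. Mrps30 had 23.0, 24.0 and 20.8 in controls, against 19.9, 24.2 and 23.5 in deleted libraries. At 104% and 107% of the control mean in replicate 2, both were among the members nearest to the controls there, together with Mrpl44 (95.1%), Mrpl10 (102%), Mrps35 (102%), Mrpl24 (104%) and Mrpl23 (106%). Mrpl44, whose fold is related to a ribonuclease, was the single member below every control in that library, at 19.1 beside control values of 20.98, 19.4 and 19.9. These genes were picked out after their values were seen, as were those at the other end, where Mrps36 stood at 193%, Mrpl18 at 190% and Mrps28 at 184%. Mrps36 is now known as a part of the oxoglutarate dehydrogenase complex. It had 24.5, 30.1 and 19.7 in controls, against 23.8, 47.9 and 26.1 in deleted libraries.

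Mrpl12, the stalk protein that recruits translation factors and also binds the mitochondrial RNA polymerase, had 64.8, 71.1 and 51.6 in controls, against 63.1, 97.4 and 53.9 in deleted libraries. Replicates 1 and 3 lay inside the control range and replicate 2 above it. Mrps11 and Mrpl46 start next to each other on opposite strands of chromosome 7 and their exons share 173 bases. Mrps11 had 17.97, 14.2 and 15.1 in controls, against 11.3, 21.1 and 10.6 in deleted libraries, while Mrpl46 had 16.0, 18.4 and 16.2 in controls, against 21.5, 24.6 and 15.9 in deleted libraries. In replicate 1 the first of this pair lay below every control and the second above every control. This pair was chosen after its values were seen.

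The other genes of the pathway were taken from fixed lists, and none of their members passed an adjusted p of 0.05 in limma in either direction. The 5 mitoribosome proteins with other names had a median log2 change of 0.17, 4 above 0 and 1 below. Ptcd3 had 18.4, 20.2 and 18.6 in controls, against 22.7, 22.7 and 19.6 in deleted libraries (0.17, SE 0.11; 0.04 with GC content and length regressed out), and Aurkaip1 was 31.1 ± 1.99 and 37.3 ± 9.04 (SD, n = 3; 0.23, SE 0.18; 0.06 without replicate 2 and 0.41 without replicate 3). Their list median in replicate 2 was 0.44, close to those of the Mrps and Mrpl genes. Dap3 and Chchd1 were at 51.3 and 96.2 in that library, above all controls, and Gadd45gip1 at 21.2, within the control range of 17.8 to 21.8.

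The 26 assembly genes found had a list median of 0.08 in replicate 2, and 6 of them had their highest value there. Over the comparison, 16 were above 0 and 10 below, with a median log2 change of 0.08. Malsu1, which keeps the immature large subunit from joining the small, had 14.7, 13.3 and 13.0 in controls, against 19.9, 16.7 and 16.4 in deleted libraries, without overlap (0.34, SE 0.12; limma unadjusted p 0.0214, adjusted p 0.922). Noa1, a GTPase of the mitochondrion, had 13.7, 13.6 and 13.4 in controls, against 10.2, 12.3 and 13.5 in deleted libraries (-0.17, SE 0.12; -0.07 without replicate 1). Translation factors and associated proteins (15 genes) had 9 above 0 and 6 below, with a median of 0.06. Slirp, a stabiliser of mitochondrial mRNA, had 80.6, 89.9 and 65.3 in controls, against 110.1, 174 and 79.8 in deleted libraries (0.56, SE 0.27; 0.26 without replicate 2). Mtfmt, which formylates the initiator tRNA, was 6.24 ± 0.775 and 7.24 ± 1.27 (SD, n = 3; 0.18, SE 0.15; 0.06 without replicate 1 and 0.10 without control 1).

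Genes for transcription and replication of mitochondrial DNA (13 genes) had a median log2 change of 0.11, with 10 above 0 and 3 below. Their highest list median was in Nat10-deleted replicate 1, at 0.21, beside 0.08 in replicate 2 and 0.07 in replicate 3. Mterf1b had 2.10, 2.39 and 2.16 in controls, against 3.94, 3.03 and 2.69 in deleted libraries (0.38, SE 0.16), and Tefm, the elongation factor of the mitochondrial polymerase, 8.19, 8.51 and 7.42 against 11.7, 9.55 and 8.98 (0.29, SE 0.13; 0.19 without replicate 1). For neither did the groups overlap, and neither passed the adjusted threshold (limma adjusted p 0.922 for both). Mterf1a and Mterf1b are near-identical copies, which makes the first value uncertain. The mitochondrially encoded mRNAs were not analysed here.

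Regulators of nuclear genes for mitochondrial proteins (13 genes) had 2 above 0 and 11 below, with a median of -0.08. Gabpb1, the partner subunit of the ETS factor GABP, had 11.1, 10.9 and 12.0 in controls, against 13.6, 15.6 and 13.5 in deleted libraries, without overlap (0.30, SE 0.11; limma unadjusted p 0.0254, adjusted p 0.922). Myc had 59.7, 54.9 and 48.8 in controls, against 44.3, 36.5 and 50.5 in deleted libraries (-0.32, SE 0.15; -0.19 without replicate 2), and was lowest in the library where the ribosomal protein genes were highest.

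The 14 genes of mitochondrial content, for abundant mitochondrial proteins outside the ribosome, had a list median of 0.5 in replicate 2. Of the 14, 11 were highest there. In replicates 1 and 3 this list stood at 0.02 and -0.02. Tomm22, of the outer-membrane import pore, was 61.9 ± 6.001 and 76.1 ± 11.8 (SD, n = 3; log2 change 0.29, SE 0.14; 0.18 without replicate 2), and Timm23, of the inner-membrane pore, 22.9, 28.8 and 23.2 in controls, against 37.0, 37.7 and 24.5 in deleted libraries (0.37, SE 0.19; 0.57 without replicate 3).

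Proliferation genes moved with the same library. All 23 tested members of that list had their highest value in Nat10-deleted replicate 2, and Bub1 did not pass the filter. The list medians were 0.49, -0.66 and 0.10 in controls, against -0.87, 1.58 and -1.21 in deleted libraries. Ccnb2 had 9.14, 2.67 and 8.07 in controls, against 0.618, 22.5 and 1.14 in deleted libraries (log2 change -0.68, SE 0.96; 0.03 without replicate 1, -1.9 without replicate 2, -0.17 without replicate 3, -0.41 without control 1 and -1.15 without control 2), and Kif20a 5.76, 2.21 and 4.17 against 0.892, 12.2 and 0.706 (-0.47, SE 0.75; -0.02 without replicate 1, -1.42 without replicate 2, 0.05 without replicate 3, -0.22 without control 1 and -0.76 without control 2). Without Nat10-deleted replicate 2, 20 passed the filter and 15 of these were lower at an unadjusted p under 0.05 in limma, against 6.46% of all genes, with a median log2 change of -0.85. Summed proliferation values ranged from 205 to 321 in controls and from 129 to 756 in deleted libraries, and their part in the member values was not tested.

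**Figure D5:**
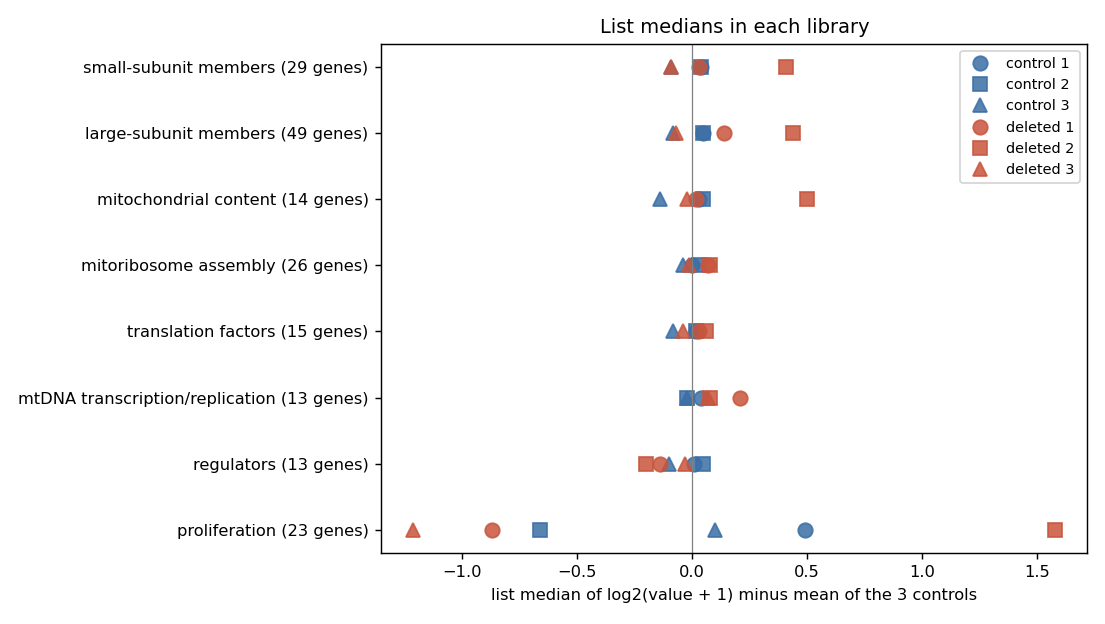
Median of log2(value + 1) minus the mean of the 3 controls over each list (rows) in each library (controls blue, deleted red, marker shape by replicate number). In Nat10-deleted replicate 2 the small subunit, large subunit and mitochondrial content lists stand at 0.41, 0.44 and 0.5 and proliferation at 1.58, while assembly and translation factor lists stand at 0.08 and 0.06.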

How the data were processed

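RNA-seq of whole uterus was deposited as 1 table per library, 3 floxed control and 3 Nat10-deleted. The deposited values are FPKM-type (per length and depth), a unit inferred from the values. The submitters' processing notes name HISAT2 2.2.1, Cufflinks 2.2.1 and build mm10, without their roles. Values were not counts, so log2(value + 1) was tested for genes that reached 1 in 3 or more libraries, using limma 3.58.1 in R 4.3.3 (moderated test with a mean-variance trend, two-sided, Benjamini-Hochberg over all 12640 genes tested, threshold 0.05). The fit was also run on simulated data with independent genes and changes larger than any fitted for the members. That run does not give the power or error rate for these data. Pseudocount, filter, scaling, variance model, library weights, a replicate block and each left-out library were alternatives. The log2 scale understates changes of low genes. Absolute depth is unknown, so no counting intervals are given.

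Named genes were Nat10, members with an adjusted p under 0.05, in each subunit the 8 smallest p and the 3 highest and 3 lowest control means, the Mrps18 paralogs, Mrps30, Mrpl12, Mrps36, and from other lists the 2 smallest p. All proteins with other names were included. Members and lists were chosen with earlier results of these data known. Positions are from GENCODE M21 (GRCm38).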

Additional observations from a re-analysis of the deposited data

How the results depend on the processing

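No gene passed the adjusted threshold in limma with all libraries weighted equally (630 passed an unadjusted p under 0.05), 316 did with array quality weights and 12 without Nat10-deleted replicate 2 (range 0 to 12 with 1 library left out), and the cause was not tested. With array quality weights 1 large-subunit gene passed (Mrpl30), Malsu1 had a log2 change of 0.46 (adjusted p 0.0483), and Nat10 -1.09 (adjusted p 0.0386). The small-subunit median was -0.07 without Nat10-deleted replicate 2, with a range of -0.07 to 0.21 over left-out libraries, and the large-subunit median ranged from 0.01 to 0.31. Nat10 ranged from -1.28 to -0.95 over left-out libraries and was -1.29 with GC content and length regressed out, a step chosen after the data were seen. Ccnb2 was -1.9 and Kif20a -1.42 when Nat10-deleted replicate 2 was left out. Ccnb2 was 0.03 without Nat10-deleted replicate 1 and Kif20a 0.05 without Nat10-deleted replicate 3. Of the other values, 551 for single genes and 86 for the summaries kept their direction or stayed within the replicate spread, and kept their side of the threshold. These counts say little about stability, since most values could hardly change label. The replicate spread was 0.191 for the small-subunit and 0.19 for the large-subunit median, above the medians of 0.09 and 0.17 themselves. Adjusted p among members was 0.922 or more in limma, far from the threshold. The small-subunit median was 0 with array quality weights and 0.03 when scaled to an equal sum. With the replicate block, 0 genes passed (726 at an unadjusted p under 0.05) and no member did (1 small-subunit and 6 large-subunit genes at an unadjusted p under 0.05). Deviations from the group means had correlations of -0.341, -0.029 and 0.1 between same-numbered libraries. With 3 libraries per group these cannot decide whether the numbers pair the libraries. Depth is unknown, and 3 libraries per group limit the precision.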
